A study of Homo sapiens with 7 samples.

Results

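The HAND1, HAND2, ISL1, MEF2C, MYOCD and HOPX loci were described from the methylation of their CpGs in 7 libraries of human stem cells and their cardiac derivatives. Each locus is a gene with its flanks, a span in whole kb on hg19, and its members are the CpGs that fall in that span. The files list 836 CpGs there, and the 616 that reached 10 reads in each of the 7 libraries were used, against 1734462 of 2587280 CpGs in the whole series. HAND2 supplied 193 of them, HAND1 155, HOPX 99, MYOCD 70, ISL1 66 and MEF2C 33. The rule takes genes by name and CpGs by position and uses no level, but the genes were picked with earlier results of these data known.

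Methylation was read by enhanced reduced representation bisulfite sequencing, which cuts DNA at CpG-rich sites and converts unmethylated cytosine so that it is read as T. The reads do not tell 5-methylcytosine from 5-hydroxymethylcytosine. The cells were of the human embryonic stem cell line HUES8, either wild type (WT) or TET1/2/3 KO, which lacks all 3 TET genes (TKO). Collection was on day 0 at the stem cell stage (SC), on day 3 as cardiac mesoderm (CME), on day 8 as cardiac progenitors (CP) and, from WT, as beating cardiomyocytes (CM, day 14 in the design text and day 15 in the sample's description, taken as CM from its title and stage label although its source label names CME). Both genotypes went through the same monolayer protocol, in which CHIR99021 was given first, the Wnt antagonist IWP2 followed on day 3, and glucose-free lactate medium later enriched cardiomyocytes. The TKO line was not taken to the last stage because it gives no beating cells, per the design text. In what follows, series of WT values are in the order SC, CME, CP, CM and series of TKO values in the order SC, CME, CP. Each of the 7 groups was 1 library, so there was no replicate, and each Fisher's exact test below compares 2 libraries and not 2 conditions. The labels do not say whether the TKO line is 1 clone, and the files hold no expression with which to check the stage or the loss of the TET genes.

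These genes are part of the cardiac gene programme. HAND1 and HAND2 are basic helix-loop-helix factors, known for left and right ventricular development respectively, and ISL1 is a LIM homeodomain factor that marks second heart field progenitors. MEF2C is a MADS-box factor that acts downstream of ISL1 in that field, MYOCD is a coactivator of serum response factor that drives smooth and cardiac muscle genes, and HOPX is a small homeodomain protein without DNA binding of its own that marks committed cardiac precursors. Promoters of developmental factors of this kind usually lie in CpG islands that carry little methylation, and TET enzymes oxidise 5-methylcytosine, the first step of active demethylation.

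The stretches just upstream of the HAND1 and HAND2 starts show what stayed unmethylated. Both are RefSeq sequences of GRCh38.p14, 250 bases ending just before the start, printed on the gene's own strand, and capitals mark the CpGs that were measured in all 7 libraries. HAND1 lies at chr5:154478228-154478477 and HAND2 at chr4:173530230-173530479, both on the minus strand.
HAND1: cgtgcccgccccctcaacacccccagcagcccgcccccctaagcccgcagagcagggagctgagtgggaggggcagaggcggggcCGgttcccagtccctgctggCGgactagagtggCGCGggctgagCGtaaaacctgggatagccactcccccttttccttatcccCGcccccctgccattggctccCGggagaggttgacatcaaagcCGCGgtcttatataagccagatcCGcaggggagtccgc
HAND2: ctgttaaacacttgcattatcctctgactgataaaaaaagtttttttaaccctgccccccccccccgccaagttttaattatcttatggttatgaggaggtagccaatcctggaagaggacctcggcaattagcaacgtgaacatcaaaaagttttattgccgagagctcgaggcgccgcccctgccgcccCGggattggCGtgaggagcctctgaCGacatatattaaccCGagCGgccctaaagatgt

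The HAND1 stretch holds 16 CpGs, of which 10 were measured, and the HAND2 stretch 13, of which 5 were measured. Over the 35116 promoter sequences of the same table the median was 11 CpGs. The 10 HAND1 CpGs were at 1.33, 2.10, 0.181 and 0.352% in WT and at 0.70, 0.268 and 0.734% in TKO. The 5 HAND2 CpGs were at 0, 0.549, 0.382 and 0% in the WT libraries and at 1.88, 1.86 and 1.99% in the TKO libraries, with 168 to 479 reads per library. Thus no library had more than 2.10% in either stretch. On either strand of the RefSeq sequences, TATAA occurred 2 times in HAND1 and not in HAND2, against 18.9% of all sequences with at least 1 match. The 2 HAND1 matches overlap within 1 stretch and are read on opposite strands. GATAA occurred 1 time in HAND1 and 3 times in HAND2 (20.4% of all), and the E-box letters CANNTG occurred 1 time in HAND2 and not in HAND1 (61.8% of all). These are matches of letters and were not tested as binding sites.

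Most CpGs of the 6 loci were little methylated whatever the genotype. Of the 616 CpGs, 411 were under 10% in every library and 494 under 20%, and 558 were under 20% in all 4 WT libraries. A further 33 were over 60% in all 7, and 29 of them lay in MEF2C and MYOCD. In the promoter windows, taken as 1000 bases on each side of a start, 245 of 288 CpGs were under 10% in all 7 libraries.

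Levels here are reads with C over all reads, summed over both strands and over the CpGs of a region, with 95% Wilson intervals that cover counting error only, since reads without molecular identifiers are not independent molecules. The 616 CpGs had 37287 to 79370 reads per library and a median coverage of 49 to 117 reads. Their pooled level was 6.85, 7.03, 3.54 and 4.36% in WT and 7.27, 6.13 and 9.08% in TKO. The mean over CpGs, each given the same weight, was 8.87, 8.78, 7.34 and 8.0% in WT and 10.1, 9.93 and 13.1% in TKO. By both measures TKO CP was the highest of the 7 and WT CP the lowest. By the mean each TKO library was above each WT library, whereas pooled TKO CME was below WT SC and WT CME. The mean over all shared CpGs of the genome likewise put each TKO library above each WT library. There TKO CP was the highest, with 46.8%, and WT CP the lowest, with 39.3%. WT SC and WT CME had 1.5 and 1.46% C at 38 mitochondrial CpGs, against 0.139 to 0.397% in the other 5 libraries. The ISL1 start below was likewise highest in those 2 libraries, at 2.01 and 1.94%, and the part of the mitochondrial value in low levels was not tested.

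**Figure D1:**
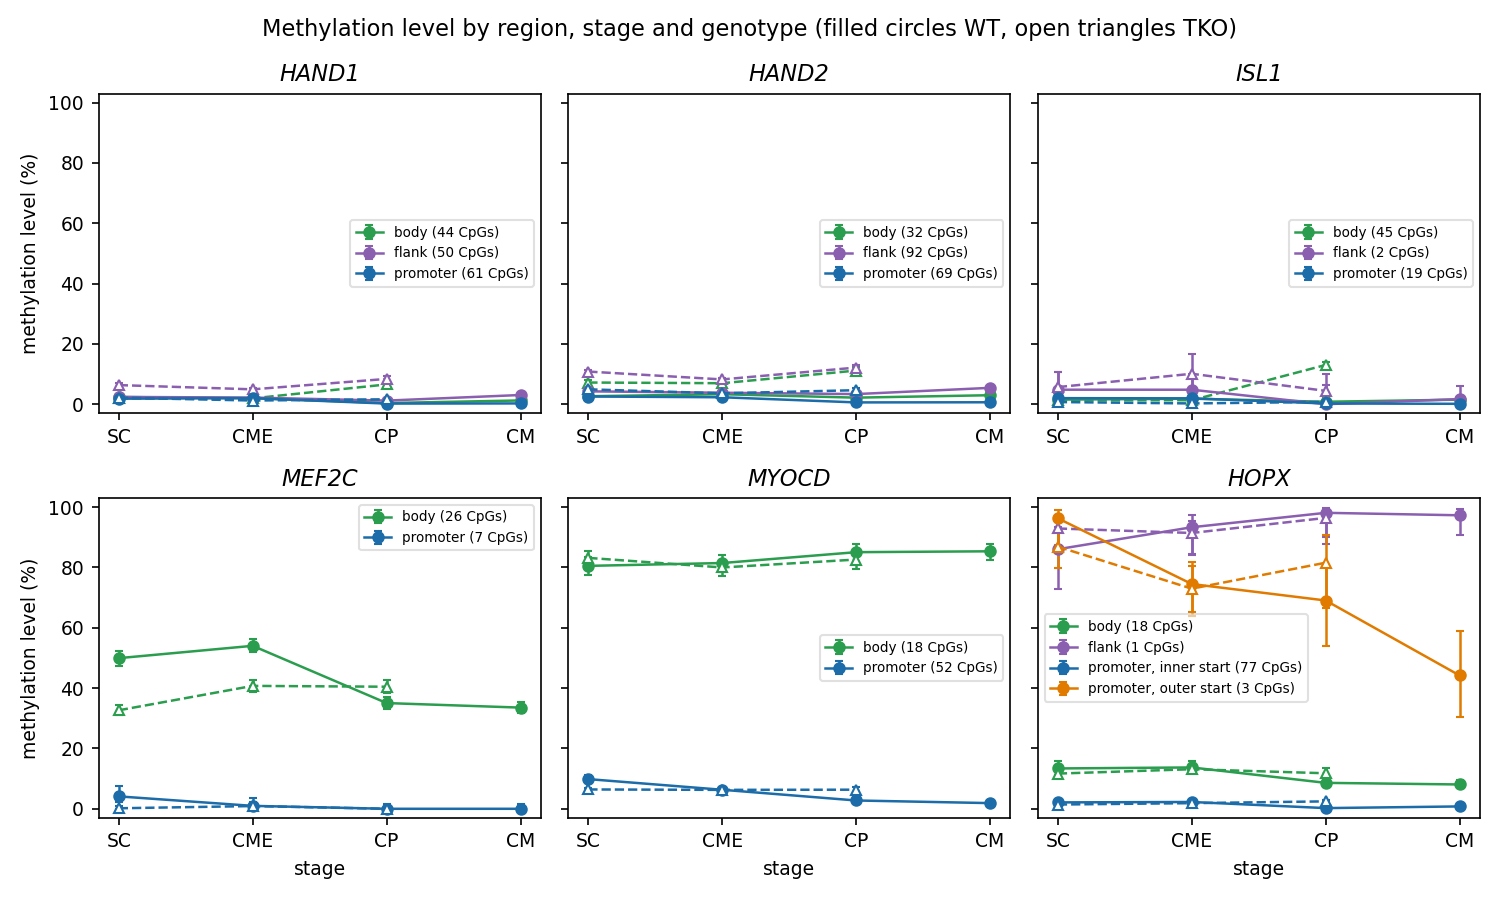
Methylation level (%, y axis) of the promoter, body and flank of each gene by stage (x axis), with 95% Wilson intervals as bars. Filled circles are WT and open triangles TKO, 1 library each. The HAND1, HAND2 and ISL1 regions stay under 14% everywhere, and the ISL1 body departs in TKO CP at 13.0%. The outer start of HOPX falls to 44.2% in WT CM.

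Outside the promoter windows the levels differed between genes and, in HAND2, MEF2C, MYOCD and HOPX, also widely between the CpGs of a gene. Pooled by region, HAND1 was low, with at most 6.55% in its body and 8.38% in its flank, both in TKO CP. HAND2 had at most 11.1% in its body and 12.1% in its flank, also in TKO CP. That flank joins unlike groups. In TKO CP its 9 CpGs at chr4:174445206-174445451 were at 43.8% and its 10 CpGs at chr4:174444011-174444205 at 1.53%. The HAND2 promoter window was at 2.55, 2.30, 0.594 and 0.638% in WT and at 4.93, 3.61 and 4.64% in TKO. The MEF2C body was at 49.9, 54.0, 35.0 and 33.5% in WT and at 32.7, 40.7 and 40.5% in TKO. Its 26 CpGs differ widely in level, and a less methylated group of 9 had 561 of 1578 reads in WT SC, 886 of 2183 in WT CP and 1666 of 2851 in TKO SC, so the weights in this pooled level differ between libraries. The mean over its CpGs, each given the same weight, was 52.6, 53.7, 52.3 and 54.4% in WT and 56.4, 57.5 and 59.2% in TKO. By that mean WT did not fall, and TKO was above WT at each shared stage. The HOPX body was at 8.06 to 13.7% pooled and at 19.6 to 24.2% as the mean over CpGs. Of its 18 CpGs, 13 were under 20% and 2 over 60% in all 7 libraries. The single HOPX flank CpG was at 86.0 to 98.1%, and the 2 flank CpGs of ISL1 had 57 to 141 reads and at most 10.1%.

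HAND1 showed an unmethylated start in every library. Its start was placed at position 153857787 of chromosome 5 (hg19, minus strand). The promoter window holds 61 CpGs and stood at 1.82, 2.00, 0.207 and 0.258% in WT and at 2.16, 1.22 and 1.63% in TKO. The intervals of WT CP and WT CM lie below those of the other 5 libraries. Within it the 53 CpGs from -164 to 593 did not pass 1.81% in any library.

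Upstream of that start HAND1 was higher in the TKO libraries. A run of 33 CpGs at chr5:153858648-153859068, from -1281 to -861 relative to the start, was at 2.81, 2.77, 1.06 and 2.37% in the WT libraries and at 7.50, 5.52 and 9.08% in the TKO libraries. The lowest TKO value was above the highest WT value. Downstream, the 25 CpGs at chr5:153855229-153855573 inside the gene were at 2.54, 1.95, 0.249 and 1.29% in WT, 2.22 and 2.19% in TKO SC and TKO CME, and 8.05% in TKO CP. The 4 CpGs at chr5:153854401-153854505, past the 3′ end of the gene, were at 5.06, 6.03, 4.44 and 6.53% in WT and at 7.96, 9.11 and 23.8% in TKO. In both of these downstream groups TKO CP stood apart from the other 6 libraries, and in the upstream run it was the highest of the 3 TKO libraries. Farther downstream, the 4 CpGs at chr5:153852680-153852722 were higher in TKO at every stage. They were at 1.39, 2.25, 0 and 3.03% in WT, on 66 to 124 reads, and at 13.5, 13.2 and 16.3% in TKO, on 104 to 370 reads.

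HAND2 held the one tile called between genotypes, and its differences lay away from the start. The start was placed at position 174451380 of chromosome 4 (hg19, minus strand). The 11 CpGs from -58 to 82 relative to it were at 0, 0.466, 0.240 and 0% in the WT libraries and at 1.69, 1.6 and 2.58% in the TKO libraries. The 47 CpGs from 444 to 1159 relative to it were at 2.08, 1.88, 0.134 and 0.297% in WT and at 0.742, 0.680 and 2.54% in TKO. There the 2 highest values were TKO CP and WT SC, and the genotypes overlapped.

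In 3 groups of CpGs farther from the start, 2 upstream and 1 downstream, the TKO libraries were higher at every stage. Upstream, the 16 CpGs at chr4:174451832-174452066 were at 5.06, 4.55, 2.14 and 2.17% in WT and at 13.0, 11.8 and 14.6% in TKO. Farther out, the 6 CpGs at chr4:174452401-174452490, about 1 kb before the start, were at 6.44, 5.96, 5.39 and 10.4% in WT and at 23.8, 19.4 and 27.6% in TKO. Inside the gene, the 5 CpGs at chr4:174449730-174449827, 1553 to 1650 bases after the start, were at 3.86, 4.08, 0.738 and 1.58% in WT and at 17.5 to 21.6% in TKO. In all 3 groups the WT and TKO libraries did not overlap, and TKO was already higher in SC. The 11 CpGs at the start had 288 to 1006 reads per library. Farther upstream, the 2 CpGs at chr4:174456504-174456522 were at 28.3, 20.2, 34.2 and 35.5% in WT and at 26.1, 31.0 and 48.3% in TKO, where the genotypes overlapped.

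Beyond the 3′ end of HAND2 lay CpGs that were also higher in the TKO libraries. The 9 CpGs at chr4:174445206-174445451 were at 16.8, 14.0, 9.24 and 11.1% in WT and at 32.2, 30.8 and 43.8% in TKO. The 5 CpGs at chr4:174442995-174443121 were at 14.5, 10.3, 12.5 and 8.82% in WT and at 30.4, 36.1 and 38.4% in TKO. A single CpG at position 174445349 carried the highest level of the locus, 35.0, 35.1, 20.8 and 24.3% in WT and 73.7, 68.9 and 85.1% in TKO, with 74 to 228 reads. Between these groups, 10 CpGs at chr4:174444011-174444205 stayed at 0.164 to 2.99% in all 7 libraries. In the RefSeq gene order HAND2 is followed on its upstream side by HAND2-AS1, an antisense gene, and bisulfite levels of a shared CpG belong to both.

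**Figure D2:**
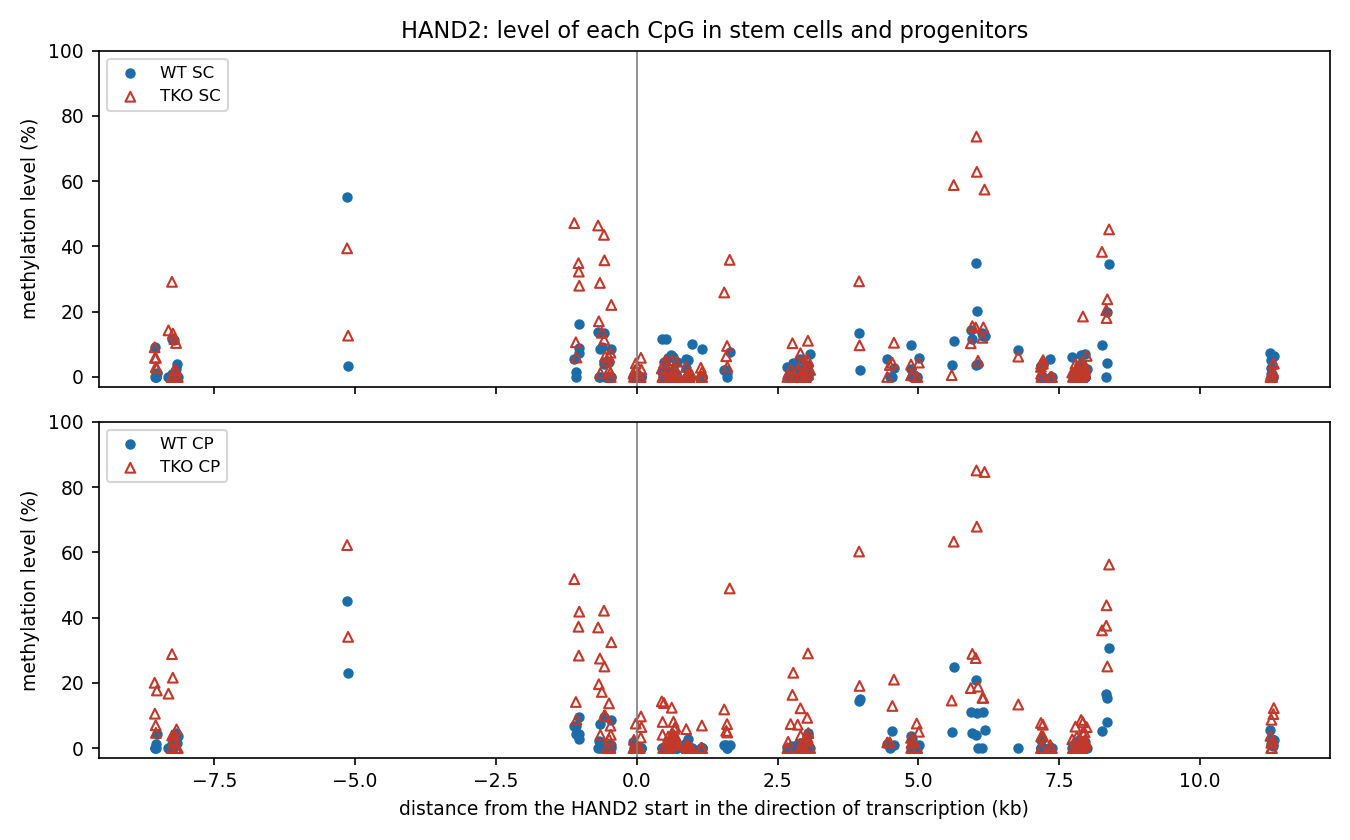
Methylation level (%, y axis) of each HAND2 CpG against its distance from the start in the direction of transcription (kb, x axis), in SC (top) and CP (bottom). Circles are WT and triangles TKO, 1 library each. Triangles stand high on both sides of a core that does not pass 2.58% as a group, and near 6 kb downstream they reach 85.1% in TKO CP.

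Inside ISL1 the difference appeared in TKO CP, unlike in the HAND2 groups above that were higher in TKO at every stage. Part of HAND2 also rose mainly in TKO CP. Its 20 CpGs at chr4:174448302-174448705 were at 2.05, 2.32, 1.10 and 3.06% in WT and at 3.38, 2.69 and 6.77% in TKO. At the ISL1 start, the 19 CpGs at chr5:50678697-50678934 were at 2.01, 1.94, 0.237 and 0.129% in WT and at 0.712, 0.251 and 0.768% in TKO. WT SC and WT CME, the libraries with the most mitochondrial C, were the highest. Apart from 2 CpGs upstream, the remaining measured CpGs of the locus sit in a dense group at chr5:50685431-50686112, several kb inside it. Its 45 CpGs were at 1.52, 1.83, 0.811 and 1.51% in WT and at 1.37 and 1.32% in TKO SC and TKO CME. In TKO CP they were at 13.0% (interval 12.1 to 14.0%, 4480 reads).

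TKO CP exceeded WT CP at each of the 45 CpGs and TKO CME at 43. Both strands showed it, with 12.8% on the plus and 13.5% on the minus strand in TKO CP against 0.784 to 1.92% on either strand in the other 6 libraries. The level rose along this group, from 11.7% over the 37 CpGs of the tile at chr5:50685001-50686000 to 20.9% over the 8 CpGs of the next. The CpG at position 50685989 reached 47.9% in TKO CP, against at most 6.96% in the other 6 libraries. No TKO CM library exists against which to follow it further.

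**Figure D3:**
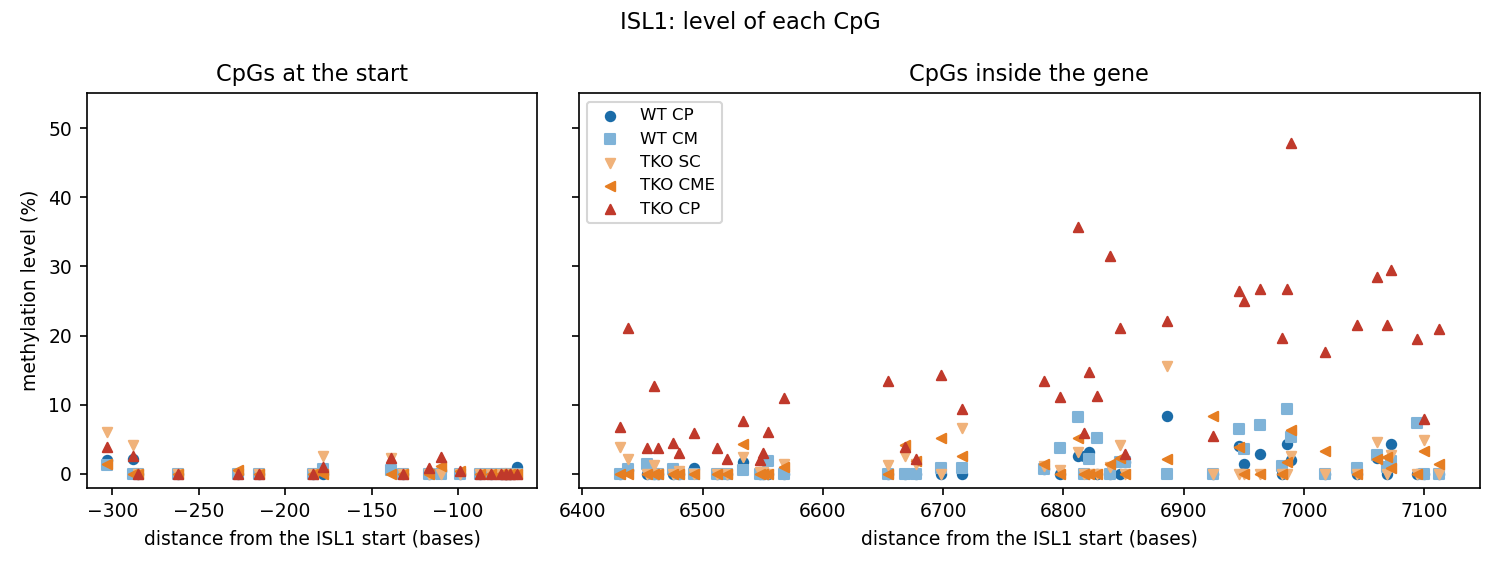
Methylation level (%, y axis) of each ISL1 CpG against its distance from the start (bases, x axis), at the start (left) and inside the gene (right). Colours and shapes give 5 of the 7 libraries. TKO CP stands above the others inside the gene, up to 47.9%, while the 19 CpGs at the start are together at 0.768% in TKO CP.

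MEF2C had few measured CpGs and mixed levels. The 7 CpGs at chr5:88179978-88180118, by a start inside the longest transcript, were at 4.11, 0.966, 0 and 0% in WT and at 0.170, 0.903 and 0% in TKO. The 0 values rest on 253 to 431 reads, where a count of 0 allows up to 0.696 to 1.19% when taken as 3 reads of the total, and the Wilson intervals end at 0.883 to 1.5%. Some kb upstream of that start, 9 CpGs at chr5:88184869-88185051 were at 11.4, 13.5, 8.24 and 12.2% in WT and at 19.3, 24.8 and 29.5% in TKO. WT and TKO did not overlap. The CpG at position 88185051 was at 8.77, 5.26, 0 and 0% in WT and at 39.8, 38.6 and 37.2% in TKO. Deeper in the gene the 6 CpGs at chr5:88160631-88160680 were at 80.2 to 81.7% in WT and 73.0 to 77.0% in TKO, the reverse order. Other deep groups did not share it. The 3 CpGs at chr5:88018481-88018519 were at 76.1 to 80.6% in WT and higher, at 86.9 to 90.9%, in TKO. The 5 CpGs at chr5:88030992-88031108 were at 84.7 to 94.7% in WT and 84.9 to 89.5% in TKO, where the genotypes overlapped. MEF2C-AS1, an antisense gene, neighbours MEF2C in the RefSeq order.

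MYOCD joined an unmethylated start to a methylated upstream edge. The 47 CpGs at chr17:12568853-12569437, across the start, were at 1.69, 1.56, 0.0605 and 0.0818% in WT and at 0.719, 1.0 and 1.15% in TKO. The 5 CpGs at chr17:12568009-12568131, close to 1 kb upstream, were at 83.6, 88.3, 59.3 and 42.6% in the WT libraries. In TKO the same CpGs were at 87.0, 85.6 and 90.0%. Thus WT CP and WT CM were low and the other 5 libraries high, with no overlap of their intervals. Reads numbered 145 to 491 per library, and the CpGs at positions 12568009 and 12568054 had the same coverage in 6 of the 7 libraries and 152 and 153 reads in TKO SC, so they cannot be taken as separate observations.

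At all 5 of these CpGs WT CM was below WT SC, and at all 5 WT CP was below TKO CP. On the plus strand WT CM had 37.2% and on the minus strand 56.7%, and the 2 strands cover different CpGs in part. The pooled level of the whole MYOCD promoter window was 9.84, 6.30, 2.75 and 1.88% in WT and 6.41, 6.27 and 6.33% in TKO. Pooling weights each CpG by its reads, and the 5 methylated CpGs had 177 of 1779 reads in WT SC and 236 of 5198 in WT CP. The mean over CpGs, which gives each CpG the same weight, was 9.27, 9.66, 5.6 and 4.77% in WT and 9.39, 8.92 and 10.5% in TKO.

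The MYOCD body was methylated, with 80.5, 81.5, 85.1 and 85.4% over its 18 CpGs in WT, 83.2% in TKO SC and 82.6% in TKO CP, and an interval of 77.3 to 82.5% in TKO CME. A group of 3 CpGs at chr17:12615473-12615525 departed from this in TKO SC, where it was at 67.9% on 53 reads, against 94.1% in WT SC and 87.3 to 95.6% in the other libraries. The 2 CpGs at chr17:12637870-12637920 were intermediate throughout, at 41.7 to 50.5%.

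HOPX had 2 starts with opposite levels. At the inner start, at position 57522683 of chromosome 4 (hg19, minus strand), a run of 90 CpGs at chr4:57521377-57522652 was at 2.30, 2.61, 0.355 and 0.905% in WT and at 2.41, 2.57 and 2.82% in TKO. TKO CP was the highest and WT CP the lowest of the 7. At the outer start, far upstream, the 3 CpGs at chr4:57548273-57548310 were at 96.3, 74.5, 69.0 and 44.2% in WT and at 86.9, 73.0 and 81.6% in TKO. WT CM was the lowest of the 7, and its interval of 30.4 to 58.9% overlaps that of WT CP, 54.0 to 80.9%. These levels rest on 38 to 122 reads, all on the plus strand and at about the same coverage per CpG, so the 3 CpGs are close to a single observation.

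**Figure D4:**
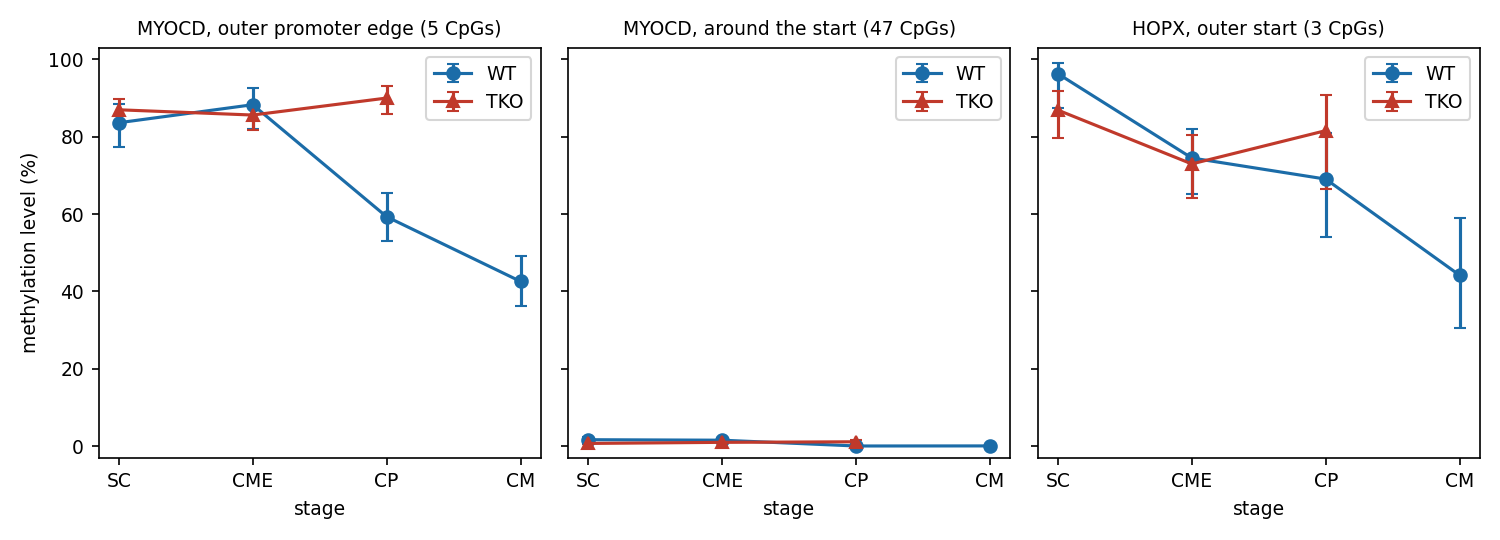
Methylation level (%, y axis) by stage (x axis) of the 5 CpGs at the upstream edge of the MYOCD promoter, the 47 CpGs across its start, and the 3 CpGs at the outer HOPX start. Circles are WT and triangles TKO, 1 library each, with 95% Wilson intervals. In CP the MYOCD edge is at 59.3% in WT and 90.0% in TKO, and the outer HOPX start at 69.0% and 81.6% with overlapping intervals. WT CM is at 42.6% and 44.2%, with no TKO library at that stage.

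The comparisons were then tested over tiles, so that the 6 genes could be read against the genome. A tile is 1 kb of hg19 with 5 or more shared CpGs, which gave 85087 tiles, and 27 of them lie in the 6 loci and hold 559 of the 616 CpGs. A tile was called where Fisher's exact test on the reads, two-sided and adjusted by Benjamini-Hochberg over all tiles, gave an adjusted p under 0.01 and the levels differed by 25 points or more. By that rule, TKO CP against WT CP had 12% of all tiles called higher and 0.0458% lower, and of the 27 tiles 1 was called, higher. It was the HAND2 tile at chr4:174445001-174446000, beyond the 3′ end, with levels of 15.6, 13.3, 10.7 and 16.9% in WT and 31.6, 30.8 and 42.3% in TKO. TKO CP exceeded WT CP there by 31.6 points (adjusted p = 5.09e-54 by Fisher's exact test).

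Of the genome's tiles, 6.26% were called higher and 0.119% lower in TKO at SC, and 6.02% higher and 0.0846% lower at CME. None of the 27 was called in either direction at these stages. Tiles under 20% in WT SC, as 24 of the 27 were, were called higher in TKO in 10.2, 10.1 and 13.1% of cases at SC, CME and CP. Counts of calls also fell with the number of CpGs in such tiles, from 22.6% for 5 to 9 CpGs to 5.42% for 40 or more. Of the 24 low tiles of the 6 genes, 4 had 5 to 9 CpGs, 9 had 10 to 19, 8 had 20 to 39 and 3 had 40 or more, and the call lay in the group of 10 to 19, where the share over the genome was 17.6%.

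By adjusted p alone, whatever the size, TKO CP was above WT CP in 22 of the 27 tiles and below it in 0, where the shares over all tiles were 39.3% and 3.59%. The median difference over the 27 was 4.09 points, against 1.30 over all tiles and 1.04 over all low tiles. In SC, 7 were higher and 3 lower by adjusted p alone (17.1% and 23.6% of all tiles), with a median of 0.357 points. In CME, 8 were higher and 3 lower (16.5% and 27.7% of all), with a median of 0.372 points. TKO CP was above WT CP by 10 points or more in 6 of the 27 tiles (21.9% of all tiles), 3 of HAND2, 2 of ISL1 and 1 of MEF2C. In SC and in CME 3 tiles were (11.6 and 10.9% of all tiles), each of HAND2.

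**Figure D5:**
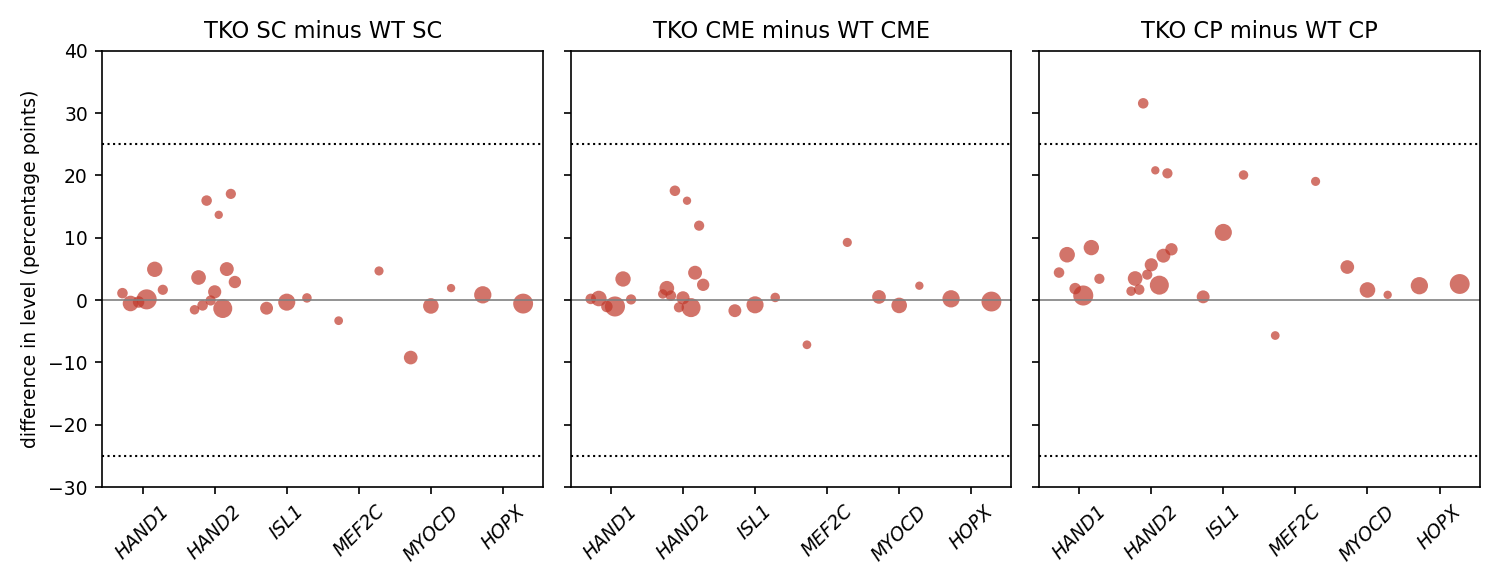
Difference in level between TKO and WT (percentage points, y axis) for the 27 tiles by gene (x axis) at SC, CME and CP, where larger points hold more CpGs. Dotted lines mark the size threshold of 25 points. The HAND2 tile at 31.6 points in CP is the single point past it.

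Several tiles short of the threshold show the sizes involved. The HAND2 tile at chr4:174449001-174450000 was higher in TKO by 13.7, 15.9 and 20.8 points at SC, CME and CP, and that at chr4:174452001-174453000 by 17.0, 11.9 and 20.3 points. The ISL1 tile at chr5:50686001-50687000 differed by 0.357, 0.432 and 20.1 points at the same stages, and the neighbouring tile with 37 CpGs by -0.322, -0.752 and 10.9 points. The MEF2C tile at chr5:88184001-88185000 differed by 4.68, 9.26 and 19 points and the methylated tile at chr5:88160001-88161000 by -3.29, -7.16 and -5.67 points. The largest HAND1 differences in CP were 8.43 points at chr5:153858001-153859000, 7.29 points at chr5:153855001-153856000 and 4.42 points at chr5:153853001-153854000. The 2 HOPX tiles differed in CP by 2.32 and 2.59 points and the MYOCD tiles by 5.31, 1.63 and 0.852 points.

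Whether the genotype difference itself changed between stages was tested with a z test on the difference of differences. None of the 27 tiles passed the thresholds for CP against SC or for CP against CME, where 5.67% of all tiles had a larger difference in CP in each case and 0.108% and 0.0588% a smaller one. The largest changes were at the ISL1 tile at chr5:50686001-50687000, with 19.7 points against SC (adjusted p = 4.15e-28 by the z test, counting error only) and 19.6 points against CME. The called HAND2 tile changed by 15.6 and 14.0 points. The HAND2 tile at chr4:174449001-174450000 changed by 7.14 and 4.87 points, the latter with an adjusted p of 0.0768 by the z test.

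A fit that lets the spread between libraries enter used limma on the 6 libraries of the stages that both genotypes have, with stage as a block and 2 residual degrees of freedom. It called 0 of the 27 tiles and, over all tiles, 6.04% higher and 0.0388% lower in TKO. By adjusted p alone 2 of the 27 passed (7.07% of all tiles), and 8 had an unadjusted p under 0.05 (20.7% of all tiles). Both that passed were HAND2 tiles, at chr4:174449001-174450000 with a mean difference of 16.8 points (adjusted p = 0.00566 in limma) and at chr4:174452001-174453000 with 16.4 points (adjusted p = 0.00770 in limma). The tile that Fisher's exact test called had a mean difference of 21.7 points and an adjusted p of 0.0137 in limma.

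Between stages no tile of the 6 genes passed both thresholds. In WT from CME to CP, when 0.0294% of all tiles were called higher and 3.38% lower, and from SC to CM, when 0.126% were higher and 2.81% lower, Fisher's exact test called 0 of the 27 tiles. It also called 0 for WT CME against SC (0.0282% higher and 0.0118% lower of all), WT CM against CP (0.0306% and 0.0223%), TKO CME against SC (0.0223% and 0.0188%) and TKO CP against CME (0.772% and 0.0599%). By adjusted p alone 15 of the 27 were lower from WT CME to CP (45% of all tiles) and 12 higher from TKO CME to CP (23.6% of all tiles). The tile with the largest WT change from SC to CM was that of the MYOCD start at chr17:12568001-12569000, at 22.1, 12.2, 5.66 and 4.02% in WT, which also carries the uneven read numbers described above. Among the tiles of HAND1, HAND2, ISL1, MEF2C and HOPX the largest WT changes from SC to CM were 2.11, 3.36, -1.88, 2.95 and -1.53 points. The outer HOPX start, with 3 CpGs, lies in no tile and changed by -52.1 points.

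Tiles can join CpGs of unlike level, so each CpG was also tested over the genome's 1734462 shared CpGs, with the same 2 thresholds, an analysis added after the data had been seen. In TKO CP against WT CP 28 of the 616 CpGs were called higher (10.3% of all CpGs were) and 0 lower (0.12% of all). HAND2 had 13 of them, HAND1 5, ISL1 5, MEF2C 3, MYOCD 2 and HOPX 0. In SC 9 were higher (5.77% of all) and 1 lower (0.261% of all), and in CME 11 were higher (5.9% of all) and 2 lower (0.31% of all). Of the higher CpGs in SC and CME, 8 of 9 and 9 of 11 were in HAND2, and the others in MEF2C. At all 3 stages 6 CpGs were called higher (4.73% of all CpGs were), 5 in HAND2 and 1 in MEF2C. In CP and at no earlier stage 17 were (4.17% of all), 5 each in HAND1 and ISL1, 3 in HAND2 and 2 each in MEF2C and MYOCD.

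Among those called at all 3 stages, the CpG of HAND2 at position 174449730 was at 7.79, 6.40, 1.01 and 0.694% in WT and at 35.9, 39.2 and 48.9% in TKO. That at position 174452490 was at 5.56, 10.9, 6.67 and 7.61% in WT and at 47.2, 49.5 and 51.8% in TKO. The largest difference in CP was at position 174445206, also in HAND2, at 5.56% in WT CP on 18 reads and 84.6% in TKO CP on 13 reads.

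Within TKO from CME to CP, 11 CpGs were called higher (0.995% of all), 8 in ISL1, 2 in HAND2 and 1 in HAND1. In WT from CME to CP 1 CpG was called lower, in MYOCD (2.15% of all), and from SC to CM 3 were, 2 in MYOCD and 1 at the outer HOPX start (1.63% of all). The MYOCD CpG at position 12568054 was the CpG called in both, at 81.4, 92.1, 54.4 and 32.1% in WT and at 76.5, 87.1 and 86.4% in TKO.

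When neighbouring CpGs no more than 200 bases apart were joined into runs of 3 or more, also after the data had been seen, the 6 genes gave 40 runs. In TKO CP against WT CP 3 were called higher, the 5 CpGs at the MYOCD edge by 30.7 points and the runs of 9 and 5 CpGs downstream of HAND2 by 34.5 and 25.9 points (11.2% of all runs). The run of 5 CpGs at HAND2 was also called in CME, by 25.9 points (4.64% of all runs). The MYOCD edge was called lower in WT from CME to CP, by -29.0 points (4.31% of all runs), and from SC to CM, by -41.0 points, as was the outer HOPX start, by -52.1 points (3.69% of all runs). At the 3 MYOCD CpGs inside the gene TKO SC was called lower against WT SC, by -26.2 points (0.173% of all runs).

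For comparison, 15 other cardiac factor genes were measured the same way over 119 tiles. In TKO CP against WT CP 43 of the 119 were called higher and 0 lower, where 12% of all tiles were higher and 0.0458% lower. Their median difference was 10.8 points, against 4.09 points for the 27 tiles of the 6 genes and 1.30 points over all tiles. The counts differed widely by gene, from 5 of 5 tiles at NKX2-5, the homeobox factor, 10 of 14 at TBX1 and 9 of 12 at IRX4 to 0 of 5 at SRF and 0 of 3 at MEF2D. In SC 33 and in CME 32 of the 119 were called higher (6.26 and 6.02% of all tiles). The NKX2-5 promoter window was at 3.51, 3.21, 2.18 and 1.85% in WT and at 69.6, 68.1 and 86.5% in TKO. Among the 6 genes only the 3 CpGs at the outer HOPX start were as high in TKO SC and TKO CME, at 86.9 and 73.0%. They were at 81.6% in TKO CP and, unlike NKX2-5, were already at 96.3% in WT SC. The other promoter windows of the 6 genes did not pass 6.41% in a TKO library. These genes were listed with results of the same data known, and the difference between the lists was not tested.

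By the mean absolute difference of promoter window levels over the 7 libraries, among 21 genes, the nearest to HAND1 were MESP1 (0.434 points) and TBX2 (0.436 points). The nearest to ISL1 were TBX2 (0.217 points) and GATA6 (0.331 points), and to MEF2C SRF (0.625 points) and MEF2D (0.628 points). HAND2 was nearest to HOPX (1.12 points) and GATA4 (1.27 points), and HOPX to GATA4 (1.11 points) and HAND1 (1.12 points), where the HOPX window pools both starts. With the inner start alone, a choice made after the data had been seen, these became 0.462 points to GATA4 and 0.474 points to HAND1 for HOPX, and 1.21 points between HAND2 and HOPX.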

How the data were processed

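The deposited files list, for each cytosine of a CpG with 10 or more reads, its strand, its coverage (counts of reads) and the percent of reads with C and with T, per the file headers. Alignment and methylation extraction were done by the submitters' core facility, per the labels' protocols, on hg19, per the submitters' processing notes. The sources used here name no aligner. The percent of C times the deposited coverage gave whole reads for 100% of lines, and these were summed over strands, CpGs, runs and tiles. The files hold 2440571 to 3024252 lines and 120742115 to 213058905 reads of coverage per library.

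Fisher's exact test (own code, Python 3.11.15 with numba 0.67.0) was run for 9 comparisons and adjusted over the genome, and limma 3.58.1 was fitted on arcsine square root levels. On simulated tiles of TKO CP against WT CP, Fisher's exact test recovered 100 of 100 changes of 40 points and 99 of 100 of 30 points, with 0 false calls over 84887 unchanged tiles. limma recovered 89 and 83 of 100 and gave 0 false calls. The unchanged tiles were drawn from the same level in both genotypes, with counting error only. They hold no spread between libraries, so the 0 false calls give no error rate for comparisons of 1 library per group.

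No hg19 genome was used. The starts of HAND1 and HAND2 and the inner start of HOPX were placed by the match of the CpG spacing of RefSeq GRCh38.p14 promoter sequences to the listed hg19 positions, with 15 of 21, 7 of 15 and 4 of 15 CpGs matched and 2 for the next best place. The ends of HAND1 and HAND2 were set from the placed start and the RefSeq gene length. Other starts and other transcript ends were set to the whole kb from general knowledge of the annotation. Promoter, body and flank limits, and distances at ISL1, MEF2C, MYOCD and the outer HOPX start, are therefore approximate.

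All 6 genes are named by rule, with promoter, body and flank levels and their tiles of largest difference. The members, the lists and the single CpGs described were chosen with earlier results of these data known. Alternatives covered coverage, size, tile placement, CpG number, strand, conversion and promoter window. The genes nearest to MYOCD by promoter level are not reported here.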

Additional observations from a re-analysis of the deposited data

How the results depend on the processing

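No paired analysis was possible because each group has 1 library and so no replicate number to pair by, other than the stage block already in the limma fit. Settings included the joining of CpGs into runs, added after the data had been seen. Most counts of called tiles were 0 and stayed 0, which does not show stability, and 11 of 87 recomputed counts differed from the main count. For TKO CP against WT CP the count of 1 became 0 at 40 points, 2 with tiles shifted by 500 bases (HAND2 and MYOCD) and 3 with runs. The count of 0 became 1 with 3 or more CpGs and 1 with runs for TKO SC against WT SC (MYOCD, lower), and 1 with runs for TKO CME against WT CME (HAND2, higher). For WT CP against CME it became 1 with shifted tiles and 1 with runs (MYOCD, lower). For WT CM against SC it became 1 with shifted tiles (MYOCD), 1 with 3 or more CpGs (HOPX) and 2 with runs, each lower. These settings change which CpGs are joined, and a MYOCD group of 5 CpGs that shares its tile with unmethylated CpGs is one that they free. Shares over the genome are given above for runs and are not given here for the other settings. At 40 points the single CpGs called between genotypes numbered 3, 4 and 9 of 616 at SC, CME and CP. The share of all CpGs called at 40 points was not counted, so these numbers cannot be read against the genome.

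Promoter window levels moved beyond their counting interval in 20 of 49 cases with 2000 bases before to 500 after the start, in 19 of 49 with 500 bases on each side and in 13 of 49 with the mean over CpGs. Some windows held the same CpGs as before and could not move. These were MEF2C and MYOCD in the first setting, and ISL1, MEF2C and the outer HOPX start in the second. With 500 bases on each side the MYOCD window in WT SC was at 1.69% in place of 9.84%, since the 5 methylated CpGs lie outside it. Depth was low at the outer HOPX start, with 38 to 122 reads over its 3 CpGs, and at the single HOPX flank CpG, with 43 to 113 reads.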
